A study of Mus musculus with 4 samples.

Results

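The 46 genes described here encode the machinery of mitosis: cyclins and their kinase, the spindle checkpoint, the kinetochore, spindle motors and the factors of chromosome separation and cytokinesis. They were picked by name as a functional group, with earlier results of these data known, out of 27361 gene names on the array, and all 46 were present, with 81 probes between them. Each gene is given by the brightest of its probes over the 4 arrays. That probe was well above background on all 4 arrays for 40 members, on 3 arrays for Cdk1 and Kif11, on 2 for Espl1 and Kif2c and on 1 for Cdc25c. Ttk, a kinase of the spindle checkpoint, was not well above background on any array and has no fold.

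The RNA came from mouse kidney, hybridised to 1-colour Agilent arrays with 1 array in each of 4 groups. The wild type sham and knockout sham arrays carry RNA from 8-week-old C57BL/6 mice after a sham operation, wild type in the first group and NLRC5-/- in the second. The wild type injured and knockout injured arrays carry RNA from mice of the same ages and genotypes whose kidneys were both made ischemic for 30 min and then reperfused. Sample titles and the series design put the end of reperfusion at 48 h, while the sample descriptions put it at 24 h, and neither could be preferred. Nlrc5 encodes a NOD-like receptor family protein that regulates MHC class I genes, and the study asks how its loss affects acute kidney injury. The labels do not give the deleted part of Nlrc5, the number of mice behind an array or whether littermates were used.

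With 1 array per group, no value below has an error from replicate animals, and no difference between 2 arrays has a p-value. The number of arrays limits the precision. Probes spotted 10 times on each array (245 of them) gave the technical spread: the SD of a difference between 2 arrays was 0.187, and 0.31 for dim probes with levels below -3. The spread between animals is not part of it. Levels are log2 of the processed signal minus the 75th percentile of the same array, and are always listed with the sham arrays first, wild type before knockout, and then the injured arrays in the same order. A difference of 1 is 2-fold.

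The 75th percentile of the signal was 456.2, 465.4, 181.7 and 362.2, so the wild type injured array was the dimmest. The share of probes well above background was 67.3% to 74.6%. All 8 kidney identity markers were well above background on every array. Nlrc5 itself read -4.08, -3.77, -3.34 and -3.62, so its probe was higher on the array labelled knockout in the sham pair and lower in the injured pair. Both gaps were about the size of the technical SD of a difference for dim probes, 0.31. The labels do not say whether the probe lies in the deleted part. The Xist probe was well above background on the knockout sham array only, and Ddx3y, Eif2s3y, Kdm5d and Uty, on the Y chromosome, were well above background on the other 3. This is the pattern of a female on the knockout sham array and of males on the other 3. Erythroid markers also stood out on that array, with a summed level of 128 in multiples of the 75th percentile against 2.20 to 15.7 elsewhere, and fat markers did so on the wild type sham array, with 25.9 against 0.08 to 0.22. Both wild type arrays were on 1 slide in 1 scan and both knockout arrays on another, so genotype and slide cannot be told apart, while each injury comparison lies within a slide.

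In a healthy adult kidney few tubule cells divide, and after ischemia surviving tubule cells enter the cell cycle and replace those that were lost. Genes for DNA replication are transcribed from late G1 into S phase and mitotic genes from G2 into M phase. In quiescent cells many mitotic promoters are held silent by the DREAM complex, which binds a short element near the transcription start called CHR. In dividing cells the same genes are switched on by MYB-MuvB and FOXM1 through that element, together with NF-Y at CCAAT boxes upstream. In bulk RNA, fewer cells of a type and less RNA per cell cannot be told apart, so a level below is that of the whole tissue.

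These 2 elements were looked for in RefSeq promoters (GRCm38.p6, 250 bases before to 50 bases after the annotated start), which were at hand for 40 of the 46 members as 44 promoters. The windows printed here run from 90 bases before the start to 30 bases from it, with CHR (TTTGAA, or TTCAAA read on the other strand) and CCAAT (or ATTGG) in capitals. The first 6 genes carry a CHR match in that window, and all of these stood higher on both injured arrays. They do not stand for every member with a match. Spc25 has a CHR and 2 CCAAT boxes in its own window, yet its injury differences were 0.25 (wild type) and 0.77 (knockout). A match anywhere in the promoter was carried by 26 counted members, of which 22 (wild type) and 24 (knockout) were 2-fold higher after injury. Without a match these counts were 8 and 10 of 13. The last 3 genes are from the 13 members with no CHR match in the whole promoter. They were picked for how they responded and do not stand for the others without a match, of which Birc5, Melk and Nuf2 stood 1.57 to 2.35 higher in wild type and 3.33 to 3.71 in knockout. Of those shown, Cenph stood higher by about the same amount in both genotypes, and the chosen probes of Bub1 and Pttg1 differed from sham by at most 0.45 in either genotype, while another probe of Bub1 differed by 1.68 and 3.84. The windows lie at chr9:70421525-70421644, minus strand, for Ccnb2, chr4:118437314-118437433, minus strand, for Cdc20, chr10:69352883-69353002, minus strand, for Cdk1, chr1:189688057-189688176, minus strand, for Cenpf, chr11:40733408-40733527, minus strand, for Hmmr, and chr11:99024160-99024279, minus strand, for Top2a. Those of the other three lie at chr13:100775870-100775989, minus strand, for Cenph, chr2:127831830-127831949, minus strand, for Bub1, and chr11:43425952-43426071, minus strand, for Pttg1.
Ccnb2: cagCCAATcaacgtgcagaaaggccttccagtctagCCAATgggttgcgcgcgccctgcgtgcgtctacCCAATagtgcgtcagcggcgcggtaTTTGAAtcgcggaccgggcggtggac
Cdc20: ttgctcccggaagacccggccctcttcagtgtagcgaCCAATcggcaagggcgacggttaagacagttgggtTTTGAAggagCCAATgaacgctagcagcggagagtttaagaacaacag
Cdk1: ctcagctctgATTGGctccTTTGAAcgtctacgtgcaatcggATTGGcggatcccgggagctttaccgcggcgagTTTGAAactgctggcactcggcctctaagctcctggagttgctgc
Cenpf: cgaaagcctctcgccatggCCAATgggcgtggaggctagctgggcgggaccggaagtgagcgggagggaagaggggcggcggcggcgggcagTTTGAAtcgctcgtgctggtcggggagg
Hmmr: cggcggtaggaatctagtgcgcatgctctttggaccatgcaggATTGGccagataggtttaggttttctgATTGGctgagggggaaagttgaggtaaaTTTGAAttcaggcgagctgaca
Top2a: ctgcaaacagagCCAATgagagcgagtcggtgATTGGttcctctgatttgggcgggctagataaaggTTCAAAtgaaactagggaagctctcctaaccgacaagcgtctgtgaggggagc
Cenph: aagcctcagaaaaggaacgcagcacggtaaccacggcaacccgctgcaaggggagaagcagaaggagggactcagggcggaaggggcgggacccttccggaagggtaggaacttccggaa
Bub1: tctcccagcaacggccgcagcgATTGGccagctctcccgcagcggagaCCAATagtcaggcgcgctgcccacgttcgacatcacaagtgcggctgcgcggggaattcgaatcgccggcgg
Pttg1: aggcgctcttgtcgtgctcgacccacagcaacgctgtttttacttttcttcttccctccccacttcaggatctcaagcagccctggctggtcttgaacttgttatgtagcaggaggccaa

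The sequence TTTGAA was found in 29 of the 44 member promoters, 65.9%, and in 17.9% of all 32851 promoters of the same length. CCAAT was found in 79.5% against 37.4%, and both together in 59.1% against 6.95%. A CHR with 2 or more CCAAT boxes, as in Ccnb2, Cdc20, Cdk1, Hmmr and Top2a above, was found in 40.9% against 2.09%. Of 37 CHR matches, 28 lay within 60 bases of the start, whereas the median CCAAT match lay 65 bases before it. The other 2 motifs searched were GGGCGG, in 77.3% against 35.7%, and TATAAA, in 4.55% against 13.6%. Every motif was searched on both strands, and none of the 4 contains another. In 25 promoters of DNA replication genes, TTTGAA was found in 20% and CCAAT in 64%. A match is a string of letters and was not tested as a binding site.

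Nearly all mitotic genes stood higher after injury, in both genotypes, and most of them by more in the knockout, a difference that 1 array per group does not allow to be tested. In wild type kidneys the members ran from -0.45 to 4.08 with a median of 1.78, and 34 of 44 were at least 2-fold higher, where 15.6% of all genes were. In knockout kidneys they ran from -0.16 to 4.09 with a median of 3.12, and 39 of 45 were at least 2-fold higher, where 4.19% of all genes were. The median over all genes was 0.05 and 0.03. No member was 2-fold lower in either genotype. Ttk is left out of both counts and Cdc25c of the first. Espl1 and Kif2c in both genotypes, and Cdk1, Kif11 and Cdc25c in knockout, passed the background filter only through the injured array and so had to be higher there. Among the 40 members measured on every array the counts were 30 and 35. In both genotypes together 32 of 44 members were 2-fold higher, against 2.32% of all genes. In 39 of the 40 members measured on every array, all but Pttg1, both injured arrays lay above both sham arrays, against 28.5% of all genes.

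**Figure D1:**
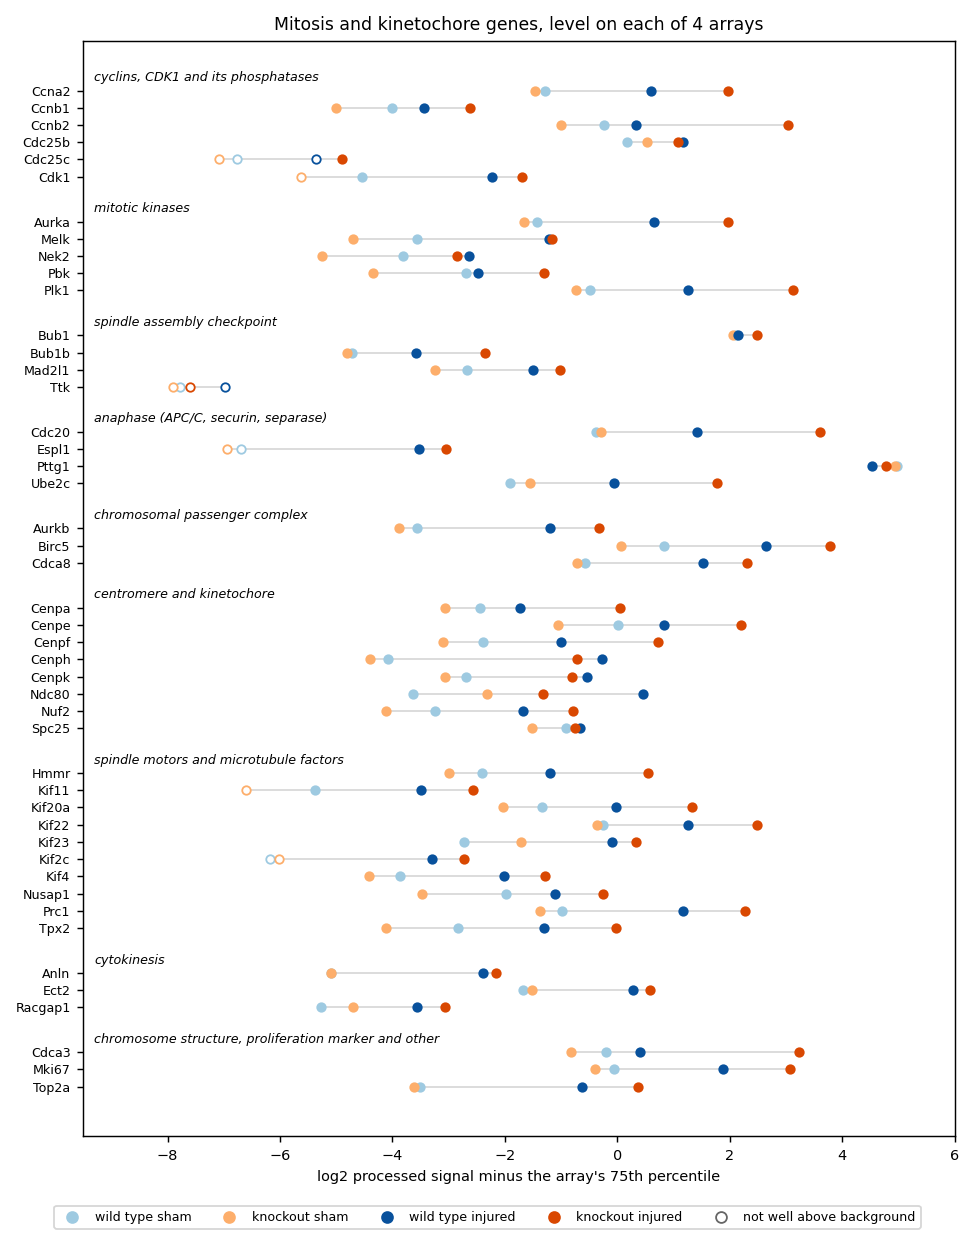
Level of each of the 46 members on each of the 4 arrays, as log2 processed signal minus the 75th percentile of the array, grouped by role. Each point is 1 array, open points were not well above background, and lines join the lowest and highest array of a gene. The knockout injured array is the right-most point for 33 of the 40 members measured on all arrays.

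The only test across arrays that the design allows is limma with genotype and operation as additive terms, which has 1 residual degree of freedom and counts any true difference of response between genotypes as error. For injury it called 0 of 21253 genes at an adjusted p under 0.05 (Benjamini-Hochberg), with 0.49 as the smallest adjusted p, while 992 genes on the higher and 1019 on the lower side had an unadjusted p under 0.05. Without adjustment, at a p under 0.05, limma placed 33 of 45 members on the higher side and 0 on the lower side, where 4.67% of all genes were on the higher side. The 45 include Espl1, Kif2c and Cdc25c, which passed the background filter only through injured arrays, and the fit used their own signals on the other arrays. Among the 40 members measured on every array, fitted with the 17663 genes that were, it was 34, where 6.54% of all genes were on the higher side. On simulated arrays of the same spread this limma fit recovered the sizes of the changes but called none of them after adjustment, so its count of 0 cannot tell whether genes changed. Cenph had the smallest unadjusted p among the members, 0.00052, with a mean injury difference of 3.73 (SE 0.27) and an adjusted p of 0.49 by limma. With normexp background correction, which also moved the median of all genes to 0.43, limma called 7689 genes for injury, 41 of the 45 members among them, with every gene given the same variance. For genotype, limma called 0 genes, with a smallest adjusted p of 0.75 and with 741 higher and 384 lower at an unadjusted p under 0.05, and 0 of 45 members had an unadjusted p under 0.05 in either direction, where 3.49% of all genes did on the higher side.

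Among cyclins, CDK1 and its phosphatases, the wild type difference was 2-fold for 3 of 5 members and the knockout difference for 4 of 6. Ccnb2, a B-type cyclin that activates CDK1 for entry into mitosis, read -0.23, -1.0, 0.33 and 3.04 (probe at chr9:70255671-70255730, mm9). The knockout injured array stood far above the other 3. The injured reading was 1.47-fold the sham reading in wild type and 16.4-fold in knockout. Ccnb1, the other main mitotic B cyclin, read -4.02, -5.00, -3.44 and -2.61, with differences of 0.58 and 2.38. Ccna2, the A-type cyclin of S phase and early mitosis, read -1.28, -1.46, 0.61 and 1.97. It stood higher on both injured arrays, by 1.89 and 3.43. Cdk1, the kinase that drives mitosis, read -4.55, -5.63, -2.22 and -1.70 and was not well above background in knockout sham. Its injury difference was 2.32 in wild type and at least 3.90 in knockout. Cdc25b, a phosphatase that activates CDK1, read 0.17, 0.53, 1.17 and 1.09 and was the 1 member of its group with the larger difference in wild type, 1.0 against 0.56. Its other probes stayed below 2-fold, with 0.29 and 0.73 in wild type against 0.17 and 0.69 in knockout. Cdc25c, a related phosphatase, was well above background in knockout injured only, where it was at least 0.72 higher than in knockout sham.

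All 5 mitotic kinases were 2-fold higher after injury in knockout and 4 of 5 in wild type. Plk1, which acts in centrosome maturation, spindle assembly and cytokinesis, read -0.49, -0.74, 1.26 and 3.13. The 2 sham arrays were close and the 2 injured arrays stepped up, by 1.75 in wild type and 3.87 in knockout. Aurka, the kinase of spindle poles, read -1.44, -1.65, 0.65 and 1.97, with differences of 2.09 and 3.62. Melk, a kinase high in proliferating cells, read -3.57, -4.70, -1.22 and -1.17, so its injured arrays were 0.05 apart and its sham arrays 1.13. Nek2, a kinase of centrosome separation, read -3.81, -5.26, -2.64 and -2.86. It shared that pattern, with its larger injury difference in knockout, 2.40 against 1.17, and its highest reading in wild type injured. Pbk, a mitotic protein kinase, read -2.69, -4.35, -2.47 and -1.31. It differed by 0.22 with injury in wild type and by 3.04 in knockout.

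The spindle assembly checkpoint holds anaphase until every chromosome is attached. Bub1b, which encodes the checkpoint protein BUBR1, read -4.71, -4.81, -3.59 and -2.35, with injury differences of 1.12 and 2.46. Mad2l1, whose product MAD2 helps to block CDC20, read -2.68, -3.24, -1.50 and -1.02, with differences of 1.18 and 2.21. Bub1, the checkpoint kinase, read 2.12, 2.06, 2.15 and 2.48 by its brightest probe and differed by 0.04 and 0.42 after injury. A dimmer probe of the same gene, at chr2:127626988-127627047 (mm9) where the chosen probe is at chr2:127626326-127626385, read -3.61, -4.56, -1.93 and -0.72. By that probe the injury differences were 1.68 and 3.84, like those of other members.

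Exit from mitosis is driven by the anaphase-promoting complex (APC/C), a ubiquitin ligase, and by separase. Cdc20, which activates the APC/C, read -0.39, -0.30, 1.42 and 3.60. Its sham arrays were within 0.09 of each other, and the injured reading was 3.50-fold the sham reading in wild type and 14.9-fold in knockout. Ube2c, the ubiquitin-conjugating enzyme that works with the complex, read -1.90, -1.56, -0.06 and 1.77, with differences of 1.84 and 3.33. Espl1, which encodes separase, was not well above background on the sham arrays and read -3.54 and -3.05 on the injured ones. Those readings were at least 1.97 and at least 2.56 above sham. Pttg1, which encodes securin, the inhibitor of separase, was the exception, with 4.97, 4.93, 4.52 and 4.77. It was the only member lower on both injured arrays, with differences of -0.45 in wild type and -0.16 in knockout. The 11 core subunits of the APC/C itself, all well above background on every array, had medians of 0.22 and 0.04 with injury, and 0 of them differed 2-fold in either genotype.

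The chromosomal passenger complex corrects faulty attachments and later acts at the cleavage site. Its 3 members here were all 2-fold higher in both genotypes. Birc5, which encodes survivin, read 0.82, 0.07, 2.65 and 3.78. Aurkb, the kinase of the complex, read -3.56, -3.88, -1.20 and -0.32. Cdca8, which encodes borealin, read -0.58, -0.72, 1.53 and 2.31. In each, knockout sham was the lowest array and knockout injured the highest, and the injury differences were 1.82 to 2.36 in wild type and 3.03 to 3.71 in knockout.

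Centromere and kinetochore genes formed a mixed group, with 5 of 8 members 2-fold higher in wild type and 6 of 8 in knockout. Cenpa, the histone H3 variant that marks centromeres, read -2.44, -3.07, -1.74 and 0.05, with differences of 0.71 and 3.11. Cenpe, a kinetochore motor, read 0.00, -1.06, 0.83 and 2.20. Cenpf, a large protein of the outer kinetochore, read -2.40, -3.11, -1.01 and 0.73. These 3 shared a wide gap between the injured arrays, the knockout being higher by 1.79, 1.37 and 1.74.

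Members of the constitutive centromere network and of the NDC80 complex gave other patterns. Cenph, of the constitutive network, read -4.07, -4.40, -0.28 and -0.72, with differences of 3.79 and 3.67. Cenpk, its partner, read -2.70, -3.07, -0.54 and -0.80, with 2.16 and 2.27. For both genes the knockout injured array was slightly below the wild type injured array. The NDC80 complex joins kinetochores to microtubules. Ndc80 read -3.63, -2.32, 0.45 and -1.33, from a probe whose target spans chr17:71860793-71861755 (mm9). It was the only member with a response more than 2-fold smaller in knockout, 0.99 against 4.08 in wild type. Nuf2, which pairs with Ndc80 in the complex, read -3.24, -4.12, -1.67 and -0.78, with differences of 1.57 and 3.33. Spc25, at the other end of the complex, read -0.91, -1.52, -0.66 and -0.75 and differed by 0.25 and 0.77. The 3 subunits thus did not share 1 pattern.

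Motors and microtubule factors of the spindle formed the largest group, 2-fold higher for 9 of 10 members in wild type and 10 of 10 in knockout. Tpx2, which activates AURKA and nucleates spindle microtubules, read -2.83, -4.11, -1.30 and -0.02, with differences of 1.52 and 4.09. The latter was the largest measured in knockout among the chosen probes, Cdk1 and Kif11 having only lower bounds. Hmmr, a spindle-assembly protein, read -2.41, -3.0, -1.20 and 0.54. Nusap1, which bundles spindle microtubules, read -1.98, -3.47, -1.12 and -0.25 and was the 1 gene of the group below 2-fold in wild type, at 0.87. Prc1, which bundles the central spindle, read -0.98, -1.38, 1.16 and 2.27. In all 4 genes knockout sham was the lowest array and knockout injured the highest.

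The kinesin motors of this group differed by 1.33 to 2.62 with injury in wild type and by 2.03 to 3.36 in knockout, bounds included. Kif11, the motor that separates spindle poles, read -5.38, -6.60, -3.49 and -2.56, and was not well above background in knockout sham. Kif2c, which depolymerises microtubules at centromeres, was not well above background on either sham array, and read -3.31 and -2.73 on the injured ones. Kif20a, a motor of the central spindle, read -1.34, -2.03, -0.02 and 1.33. Kif22, a chromosome arm motor, read -0.25, -0.36, 1.25 and 2.48, and Kif4, another, read -3.87, -4.41, -2.01 and -1.29. Kif23 read -2.72, -1.71, -0.10 and 0.33. It is a motor of the central spindle and was, with Ndc80, 1 of 2 members at least 2-fold higher in knockout sham than in wild type sham. Its second probe gave 2.62 and 1.93 where the chosen one gave 2.62 and 2.03.

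All 3 cytokinesis genes were at least 1.64 higher after injury in both genotypes. Anln, which encodes the contractile ring protein anillin, read -5.10, -5.10, -2.39 and -2.17. Ect2, the exchange factor that activates RHOA at the cleavage site, read -1.68, -1.53, 0.28 and 0.58. Racgap1, which works with KIF23 to position it, read -5.28, -4.70, -3.56 and -3.06. By the chosen probes the injury differences of these 3 were 1.72 to 2.71 in wild type and 1.64 to 2.93 in knockout. Within a gene these differed between the genotypes by at most 0.22. A second probe of Racgap1 was well above background on the knockout arrays only. It differed by 2.30 with injury in knockout and stood at least 1.52 higher in knockout injured than in wild type injured. By a second probe of Ect2 the differences were 2.78 and 2.15.

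The set also holds 3 genes of other roles. Top2a, the topoisomerase that untangles sister chromatids, read -3.50, -3.61, -0.63 and 0.37, with injury differences of 2.87 and 3.98. Mki67, which encodes the proliferation marker Ki-67, read -0.07, -0.40, 1.88 and 3.07, with 1.95 and 3.47. Cdca3, which marks the CDK1 inhibitor WEE1 for degradation, read -0.21, -0.83, 0.40 and 3.24. The injured reading of Cdca3 was 1.53-fold the sham reading in wild type and 16.8-fold in knockout, a pattern almost the same as that of Ccnb2.

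**Figure D2:**
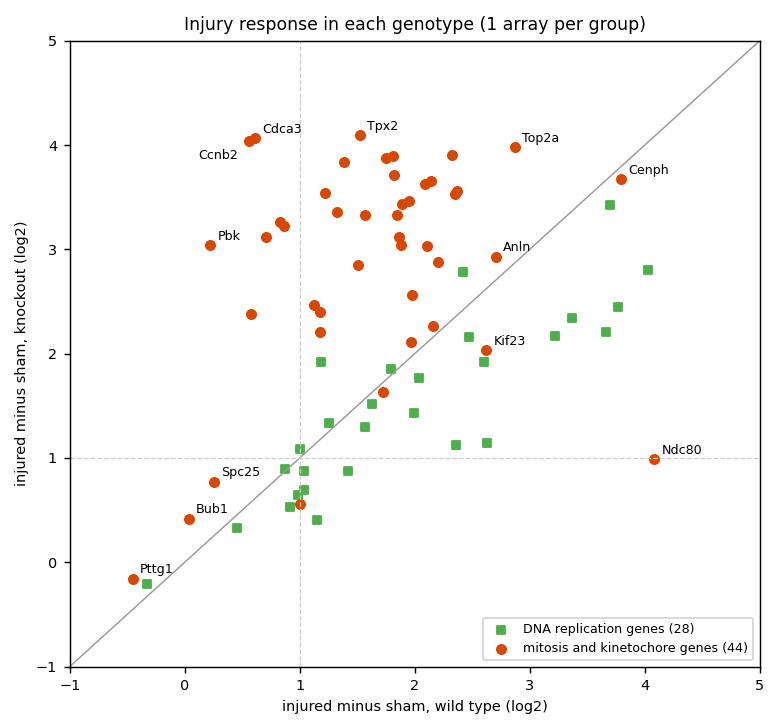
Injury response (injured minus sham, log2) in knockout against that in wild type for 44 members and 28 DNA replication genes. Each point is a gene from 1 array per group, the solid line marks equal responses and dashed lines mark 2-fold. Most mitosis genes lie above the solid line, Ndc80 lies far below it, and most replication genes lie below it.

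The size of the response was compared between the genotypes for the 40 members measured on all arrays. It was larger in knockout for 35 and at least 2-fold larger for 28, where 9.02% of all genes were. It was at least 2-fold smaller for 1, Ndc80, where 9.69% of all genes were. The median difference of responses was 1.42, and that of all genes was -0.05. Ccnb2, Cdca3 and Pbk differed most, by 3.48, 3.45 and 2.82. The smallest differences of responses were those of Cenph, Cenpk, Racgap1 and Ect2, at -0.12, 0.11, -0.08 and 0.15.

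The genotypes differed on the sham and on the injured arrays. On the sham arrays 34 of 42 members were lower in knockout, with a median of -0.35 (all genes 0.09). Of these, 7 were at least 2-fold lower, where 3.14% of all genes were: Pbk at -1.66, Nusap1 at -1.48, Nek2 at -1.45, Tpx2 at -1.28, Melk at -1.13, Cenpe at -1.06 and Cdk1 at -1.06 or below. Kif23 and Ndc80 were at least 2-fold higher, at 1.01 and 1.32, where 4.71% of all genes were. On the injured arrays 38 of 44 members were higher in knockout, with a median of 0.88 (all genes 0.05). At least 2-fold higher were 19, where 8.61% of all genes were, led by Cdca3 at 2.83, Ccnb2 at 2.71, Cdc20 at 2.18, Plk1 at 1.87 and Ube2c at 1.83. Ndc80 was the 1 member at least 2-fold lower, at -1.78, where 8.13% of all genes were. Of the 35 members with the larger response in knockout, 27 had the larger part of that gap on the injured arrays. The share of all genes was not taken for this count, so it cannot be read as particular to the members. All genes were also more often 2-fold apart on the injured arrays, 8.61% higher and 8.13% lower. On the sham arrays the shares were 4.71% and 3.14%. With normexp background correction 1 of 42 members was 2-fold lower in knockout sham, where 1.6% of all genes were, so that count came near its background. Under it 8 of 45 were 2-fold higher in knockout injured, where 4.10% of all genes were.

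The order of the arrays was shared by most members. Knockout injured was the highest array for 33 of 40, against 26.4% of all genes, and knockout sham the lowest for 31, against 13.4%. The knockout was lower than wild type in sham and higher in injured for 28 of 40, against 19.9% of all genes. Wild type injured was the highest array for 6, against 31.8% of all genes: Cdc25b, Cenph, Cenpk, Ndc80, Nek2 and Spc25. Because the knockout sham array differed in sex and in erythroid markers from the others, the knockout injury response was also taken against the wild type sham array. It then had a median of 2.74, with 39 of 45 members 2-fold higher, where 10.1% of all genes were. The wild type response taken against knockout sham had a median of 2.07, below 2.74, but 40 of 44 members were 2-fold higher, where 11.3% of all genes were, so by that count the wild type was no longer the lower. Both of these comparisons cross slides and genotypes.

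**Figure D3:**
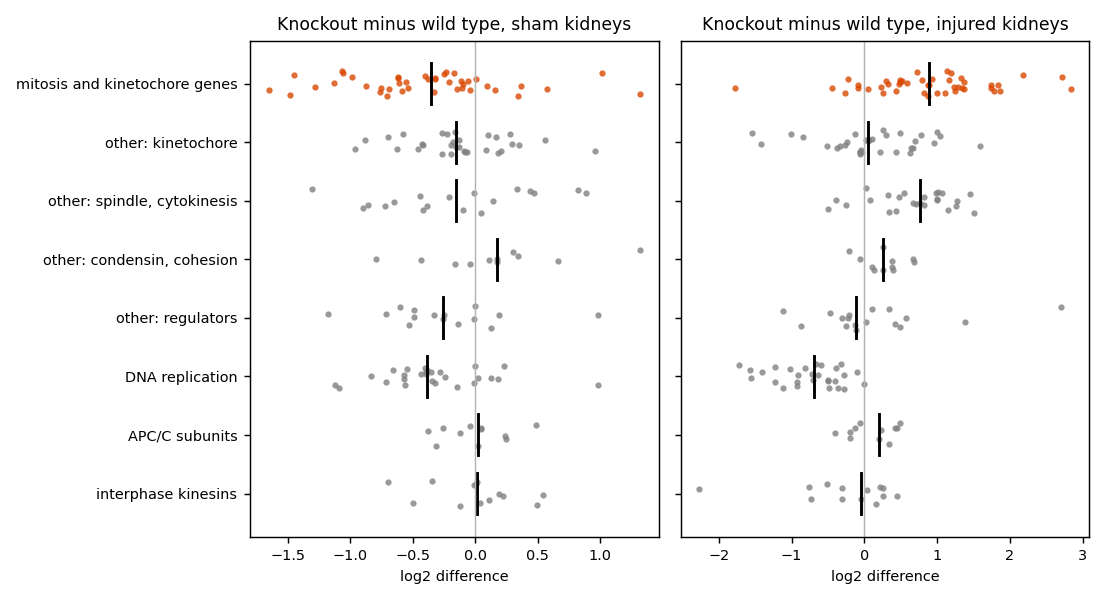
Knockout minus wild type (log2) in sham kidneys, left, and injured kidneys, right, for the mitosis and kinetochore genes and for 7 other gene lists. Each point is a gene and the black bar is the median of its list. The members' median is -0.35 in sham and 0.88 in injured kidneys, and that of the DNA replication genes is -0.38 and -0.69.

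Other mitosis genes, not among the 46, were listed by function. In these lists and that of DNA replication, genes well above background only on injured arrays had to be higher there. Of 33 further centromere and kinetochore genes, 18 of 32 were 2-fold higher with injury in wild type and 20 of 33 in knockout, with medians of 1.13 and 1.42 and none 2-fold lower. Sgol2, a protector of centromeric cohesion, stood higher by 3.53 and 3.24, and Zwilch, of a checkpoint complex at kinetochores, by 3.33 and 2.21. Ska1, a kinetochore-microtubule coupler, stood higher by 2.44 and 3.85, and Casc5, which encodes the scaffold KNL1, by 2.27 and 4.0. This list had a median of 0.05 between the injured arrays, with 2 genes at least 2-fold higher in knockout and 3 lower.

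Among 25 spindle and cytokinesis genes, 14 of 20 were 2-fold higher with injury in wild type and 21 of 25 in knockout. Only 18 of the 25 were well above background on the sham arrays, and the rest could only be higher after injury. Iqgap3, a scaffold of proliferating cells, stood higher by 3.06 and 4.93, and Psrc1, a spindle protein, by 2.54 and 3.32. Kif20b, a kinesin of cytokinesis, stood higher by 2.76 and 3.24, and Gtse1, a microtubule-associated protein of G2 and M phase, by 3.03 and 3.50. Depdc1b ran against the list in wild type, at -1.50, and gave 0.24 in knockout. Between the injured arrays this list had a median of 0.77, 8 of 25 at least 2-fold higher in knockout and 0 lower. Only 20 were well above background in wild type injured, against 25 in knockout injured, and the rest could only be higher in knockout. Among the 18 measured on every array, the response was at least 2-fold larger in knockout for 5 and smaller for 0.

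Of 11 condensin and cohesion genes, 8 were 2-fold higher in wild type and 7 in knockout, with medians of 1.78 and 1.39. Ncapg, a condensin subunit, gave 2.91 and 4.02, and Ncaph, another, gave 2.44 and 1.93. Smc2, the core ATPase of condensin, gave 2.39 and 2.43, and Esco2, an acetyltransferase of cohesin, gave 1.78 and at least 2.71. Between the injured arrays the list's median was 0.26 and 0 genes were 2-fold apart.

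Of 17 regulators of mitosis and its transcription, 9 of 16 were 2-fold higher with injury in wild type and 9 of 17 in knockout. Foxm1, the transcription factor of G2 and M phase genes, read -2.88, -3.41, -0.98 and 0.40, and Cdkn3, a phosphatase of CDKs, read -1.11, -2.29, -0.22 and 2.48. Both repeated the members' order of arrays, with responses of 1.91 and 3.81 for Foxm1 and of 0.89 and 4.77 for Cdkn3. Pkmyt1, a kinase that inhibits CDK1, gave 2.92 and 2.96, and Trip13, an ATPase of the checkpoint, gave 2.83 and 2.20. The median of the list between the injured arrays was -0.12, with 2 genes at least 2-fold higher in knockout, Foxm1 and Cdkn3, and 1 lower, Trip13.

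DNA replication genes also stood higher after injury, 23 of 28 by 2-fold in wild type and 19 of 28 in knockout, with medians of 1.71 and 1.38. Between the injured arrays they lay on the other side of 0 from the mitosis genes, with a median of -0.69, 0 genes at least 2-fold higher in knockout and 8 lower. Chaf1b, of the chromatin assembly factor that follows replication forks, read -1.29, -1.30, 2.74 and 1.51. Ccne1, the cyclin of S phase entry, read -1.77, -2.17, 2.0 and 0.28. Rrm2, which makes deoxynucleotides, read -2.28, -2.05, 1.39 and 0.16. In these 3 the wild type injured array was the highest. Responses were at least 2-fold larger in knockout for 0 of 25 replication genes and at least 2-fold smaller for 6, where the members had 28 and 1 of 40. The difference between the lists was not tested, since genes of 1 array are not replicates.

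G1 cyclins and CDKs had a median of -0.06 with injury in wild type. There Cdk6 at 1.87 and Cdk2 at 1.32 were 2-fold higher and Ccnd2 at -1.13 was 2-fold lower, and in knockout 0 of the 6 were 2-fold apart. The 13 kinesins of interphase transport had medians of 0.29 (wild type) and 0.09 (knockout). In wild type 1 was 2-fold higher, Kif5a at 2.87, and 1 was 2-fold lower, Kif21a at -1.58. In knockout these gave 0.38 and -0.84, and 0 of the 13 were 2-fold apart. CDK inhibitors, which hold cells out of division, had medians of -0.29 (wild type) and -0.22 (knockout). Among them Cdkn1a, which encodes p21, read -1.47, -0.14, 1.86 and -1.10. The wild type injured array was the highest and knockout injured was close to the sham arrays, so wild type responded by 3.33 and knockout by -0.96. Cdkn1c read 2.42, 3.61, 1.06 and 3.20 and Cdkn2c read 0.55, -0.11, 0.22 and 1.64, both higher on the knockout injured array than on the wild type injured array, by 2.15 and 1.42. Cdkn2b read 0.55, -0.98, -1.28 and -1.98 and was lower on both injured arrays.

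Markers of other cell types moved with the same comparisons, and their part in the results was not tested. The summed level of 7 injured tubule markers, in multiples of the 75th percentile, was 91.9, 159, 1219 and 430, all 7 being well above background on every array. Between the injured arrays 6 of the 7 were at least 2-fold lower in knockout, Krt20 at -5.30, Sox9 at -3.43, Lcn2 at -3.02 and Havcr1 at -2.83 among them. On the sham arrays 2 of the 7 were already at least 2-fold lower in knockout, Havcr1 at -5.30 and Krt20 at -2.60, and 1 was higher. The response was at least 2-fold larger in knockout for 1, Havcr1, with 3.07 in wild type and 5.54 in knockout. It was at least 2-fold smaller for 5. Of 10 proximal tubule markers 7 were at least 2-fold lower with injury in wild type, where 12.1% of all genes were, and 1 in knockout, where 3.11% were. Of 6 endothelial markers the counts were 5 and 0. Summed fibroblast and pericyte markers read 29.2, 24.4, 29.5 and 68.9, and 5 of the 6 were higher in knockout between the injured arrays. Macrophage sums were 3.50, 4.18, 4.39 and 6.14, and lymphocyte sums were 1.25, 1.29, 0.99 and 1.37. The fibroblast and pericyte, macrophage and lymphocyte sums were each highest on the knockout injured array, where most mitosis genes were highest. The single markers were mixed. Between the injured arrays 4 of 7 macrophage markers were higher in knockout, with Emr1 at 3.13 and C1qa at 3.28 but Cd68 at -1.24. Of 7 lymphocyte markers 5 were higher. Neutrophil sums were 4.64, 6.63, 11.8 and 3.25. Urothelial sums were 4.31 in wild type sham and 0.83 to 1.45 on the others.

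The sequence features described above were set beside the expression values. The 27 members with TTTGAA in the promoter had median injury differences of 1.87 and 3.12, wild type first, and the 13 without it had 1.17 and 2.40. Between the injured arrays the medians were 1.06 and 0.32, with 13 of 26 and 2 of 13 members at least 2-fold higher in knockout, against 8.61% of all genes. These values rest on the chosen probes. In the group without TTTGAA, other probes measured on every array crossed 2-fold there for Bub1, at 1.20, and Ccnb1, at 1.99 and 1.58. The chosen probes of these genes gave 0.32 and 0.82. Other such probes of Cdc25b, Cenpk and Mad2l1 stayed below 2-fold. The members without it were Birc5, Bub1, Ccnb1, Cdc25b, Cenpe, Cenph, Cenpk, Mad2l1, Melk, Nek2, Nuf2, Nusap1 and Pttg1. Of the 6 members highest in wild type injured, 4 were among these 13, while Ndc80 and Spc25 carried a match. The split by CCAAT gave 0.96 for 30 members with it and 0.48 for 9 without between the injured arrays. With injury its medians were 1.78 with and 1.82 without in wild type, and 3.12 and 2.93 in knockout. These are descriptions of 1 array per group, and the groups of members were not tested against each other.

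Where a gene had a second probe, the probes could be compared. Of 34 other probes without a flag, 13, from 11 genes, were well above background on all 4 arrays. All 13 gave the same direction of injury difference as the chosen probe in both genotypes, 12 gave the same direction of response difference, and 8 in knockout lay within 0.5 of the chosen value. The others were mostly larger: in knockout 10 of 13 exceeded the chosen probe, as for Hmmr at 4.56 against 3.54 and Mki67 at 4.23 against 3.47. A probe of Ccnb1 gave 1.39 and 3.87 where the chosen one gave 0.58 and 2.38. Ect2 was the 1 gene whose probes disagreed on which genotype responded more, 2.78 and 2.15 by its second probe.

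**Figure D4:**
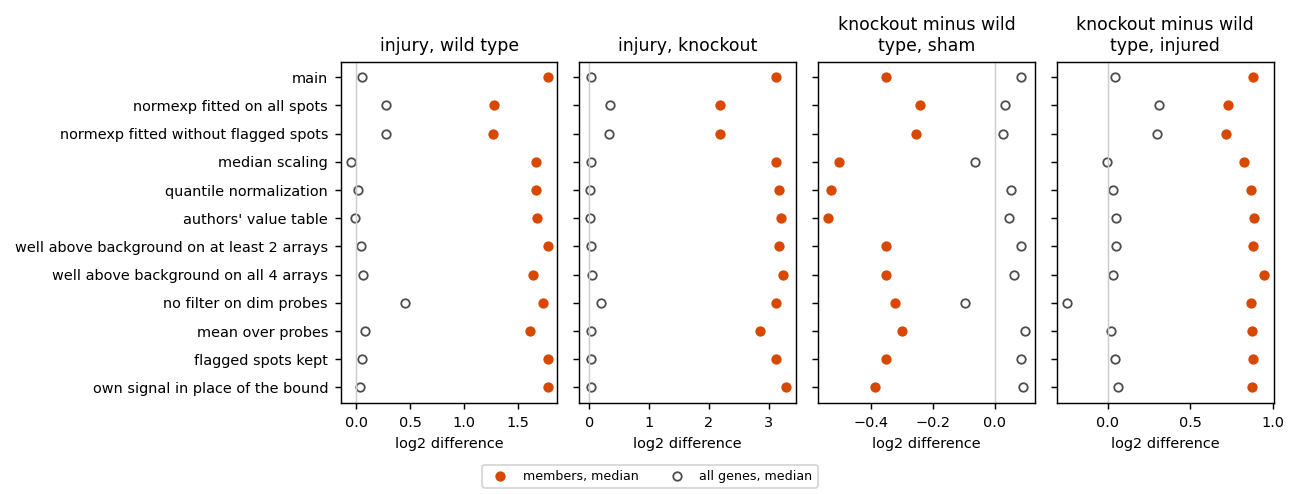
Median log2 difference of the members (filled) and of all genes (open) under each way of processing, for injury in wild type, injury in knockout, and knockout minus wild type in sham and injured kidneys. Each panel has its own axis. The members' median keeps its side of 0 in every row, and normexp background correction brings it closest to 0 in both injury panels.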

How the data were processed

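Processed spot intensities in the deposited scanner files were background-subtracted and detrended within each array, per the file headers. No scaling between arrays had been applied to them. The software was Agilent Feature Extraction, given as version 10.7.3.1 in the headers and as 9.1 in the submitters' processing notes. A second deposited table gives log2 values of these arrays from the authors, scaled between arrays by a method not given in the sources used here, and served as an alternative. Its ranks matched the scanner intensities and its column medians were 5.91 to 5.93. Probe coordinates are those of build mm9, per the file headers.

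Controls and flagged outlier spots (2 kinds of flag) were left out, spots of a probe were averaged, and the 75th percentile of all noncontrol spots was subtracted on the log2 scale. Of 41174 probes, 41142 remained. Genes are named as in the files. RefSeq accessions gave the same symbol for 43 of the 46 chosen probes and were not in the gene table for 3. A gene entered a comparison of 2 arrays where its probe passed the scanner's well-above-background call on either (21253 genes on at least 1 array). A reading not well above background was raised, where it was lower, to the dimmest reading that was well above background on its array, and such a difference is written "at least". Where that left no fold the gene was not counted. Differences of responses used the 17663 genes measured on all 4 arrays.

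Tests used limma 3.58.1 in R 4.3.3 over all genes, with Benjamini-Hochberg adjustment, and the fit was tested on simulated arrays, where it recovered the sizes of the changes but called none after adjustment. The members, gene lists and markers were chosen with earlier results of these data known. Every member may be named, and of each other list the 4 genes with the largest mean injury difference and any gene 2-fold apart against its list's median. Alternatives covered background correction, scaling, filters on dim probes, flagged spots, several probes per gene, bounds, fold threshold and leaving out each array. Promoter sequences are those of RefSeq.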

Additional observations from a re-analysis of the deposited data

Results flagged for a closer look

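For 4 members the genotypes were at least 2-fold apart on the sham arrays in one direction and on the injured arrays in the other. With 1 array in each group these reversals were not tested. Cenpe, the kinetochore motor, differed between knockout and wild type by -1.06 in sham kidneys and by 1.37 in injured ones, which puts the injured difference 2.43 above the sham difference on the log2 scale. For Pbk, a mitotic kinase, the same quantity was 2.82, from a sham difference of -1.66 and an injured difference of 1.16. For Tpx2, the spindle assembly factor, it was 2.57, from -1.28 and 1.29. Ndc80, the kinetochore subunit that binds microtubules, ran the other way with -3.09, from 1.32 in sham and -1.78 in injured kidneys. In the first 3 the array that stood lowest was knockout sham, the array with the female pattern of sex-chromosome genes, and the part of sex was not tested.

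For 2 members a probe that did not represent the gene showed 2-fold injury differences in both genotypes where the chosen probe did not. For Bub1 that probe, at chr2:127626988-127627047 (mm9), stood 3.84 higher with injury in knockout, against 0.42 for the chosen probe. For Ccnb1 the probe at chr13:101549634-101549693 (mm9) gave 3.87, against 2.38 for the chosen one. The chosen probe was the brighter in both cases, and why the probes of a gene differ was not tested.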

How the results depend on the processing

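The medians of the members kept their direction under every alternative run. The 2-fold counts did so too, but that for genotype in sham came near its background under normexp. At 4-fold the sham count was 0 higher and 0 lower, so it had no direction. Of 1112 single-gene values under the alternatives whose difference was at least 2-fold as reported, 0 changed sign, and of 795 whose difference was smaller 35 did, 20 of them under normexp. The normexp background correction, fitted on all spots or without flagged spots, lowered the injury medians to 1.28 and 1.27 in wild type. In knockout it lowered them to 2.18 and 2.19, and the median difference of responses fell to 1.0 and 1.01. With normexp 41 of 45 members were 2-fold higher with injury in knockout in each fit. The share of all genes there rose from 4.19% to 32.1% and 31.1%. In wild type 31 of 44 members were 2-fold higher in each fit, where 15.3% and 14.65% of all genes were. Under normexp the members 2-fold lower in knockout sham fell to 1 and 1, and those 2-fold higher in knockout injured to 8 and 8. It also moved the median of all genes in the limma injury fit to 0.43, and limma then called 7689 and 7612 genes for injury, 41 of the 45 members among them each time, and 104 and 110 for genotype, none of them members. Limma called 0 genes in both fits under the other alternatives, and, with each array left out, from 0 to 0. Leaving out an array removes a group, so those fits kept 1 term, with 1 arm a single array assumed to vary like the other. A count of 0 here says nothing about stability, since the fit called none of the changes it was tested on. The mean over probes gave 2.85 for injury in knockout. By it 4 of 40 members were 2-fold lower in knockout sham, where 2.96% of all genes were. The authors' table gave a sham median of -0.54. At 4-fold the counts were 13 members higher with injury in wild type (4.28% of all genes), 38 of 45 in knockout (1.16%), 0 lower in knockout sham (0.63%), 3 of 44 higher in knockout injured (1.92%) and 12 of 40 with a larger response in knockout (2.46%). Taken against the other genotype's sham array, an alternative chosen after seeing the data, the injury medians were 2.07 in wild type and 2.74 in knockout, and 40 of 44 and 39 of 45 members were 2-fold higher. No paired analysis was possible because each group held 1 array. The design has no spread between animals, genotype goes with slide and scan, and the dimmest members, such as Ttk and Cdc25c, were limited by signal over background.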
